A study of Mus musculus with 16 samples.

Results

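The 8 mouse first molar germ libraries with low Pou3f3 and high Nkx2-3 made up 8 of the 16 libraries of the series. They were chosen by labelled stage, ED14.5, ED15.5, ED16.5 or ED17.5 (embryonic day), and all 8 had under 30 CPM of Pou3f3 and over 10 CPM of Nkx2-3 (CPM, the counts of a gene scaled to 1000000 gene counts of its library). In the order of the code in their names they were numbered 1 to 8. Positions 1, 2, 3 and 4 were labelled upper molar at ED14.5, ED15.5, ED16.5 and ED17.5, and positions 5, 6, 7 and 8 were labelled lower molar at the same 4 stages. The other 8 libraries, here called high Pou3f3, were labelled ED15.0, ED16.0, ED17.0 and ED18.0 and were numbered in the same way. Every library was poly(A) RNA of the left and right first molar germs of a single wild-type CD1 mouse embryo, an outbred strain, with no treatment. By the labels the embryos were male, and positions 1 and 5, 2 and 6, 3 and 7, and 4 and 8 each came from a single embryo. There was 1 library at each position, so a p-value measured the scatter of libraries about a trend. The 8 libraries held 33939255 to 40021946 gene counts each.

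A molar germ is an epithelium folded over a condensed mesenchyme. Signalling centres in the epithelium, the enamel knots, secrete Shh, Fgf, Bmp and Wnt proteins while the crown takes shape and cusps appear. Later the inner epithelium forms ameloblasts, which secrete enamel, and the facing mesenchyme forms odontoblasts, which secrete dentin, while bone and its resorbing osteoclasts form around the germ. Pou3f3 is a transcription factor gene of the maxillary part of the first pharyngeal arch, and Nkx2-3 is a homeobox gene.

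Pou3f3 (chromosome 1, 42695768 to 42703176 in mm10, with gene limits from GENCODE release M21) measured 9.97, 8.24, 6.45, 10.1, 4.89, 5.14, 5.46 and 4.45 CPM at positions 1 to 8 of the low Pou3f3 libraries and 131.5, 119.2, 111.6, 109.5, 86.2, 70.7, 64.6 and 60.1 CPM in the high Pou3f3 libraries. Nkx2-3 (chromosome 19, 43612325 to 43615892) measured 53.1, 56.2, 46.7, 39.4, 31.5, 31.3, 22.4 and 19.2 CPM at positions 1 to 8 of the low Pou3f3 libraries, against 0 to 0.112 CPM in the high Pou3f3 libraries. These values go with the choice of libraries and were not tested between the groups. The library nearest to a threshold from inside had 10.1 CPM of Pou3f3 or 19.2 CPM of Nkx2-3, and the nearest from outside had 60.1 CPM of Pou3f3 or 0.112 CPM of Nkx2-3.

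**Figure D1:**
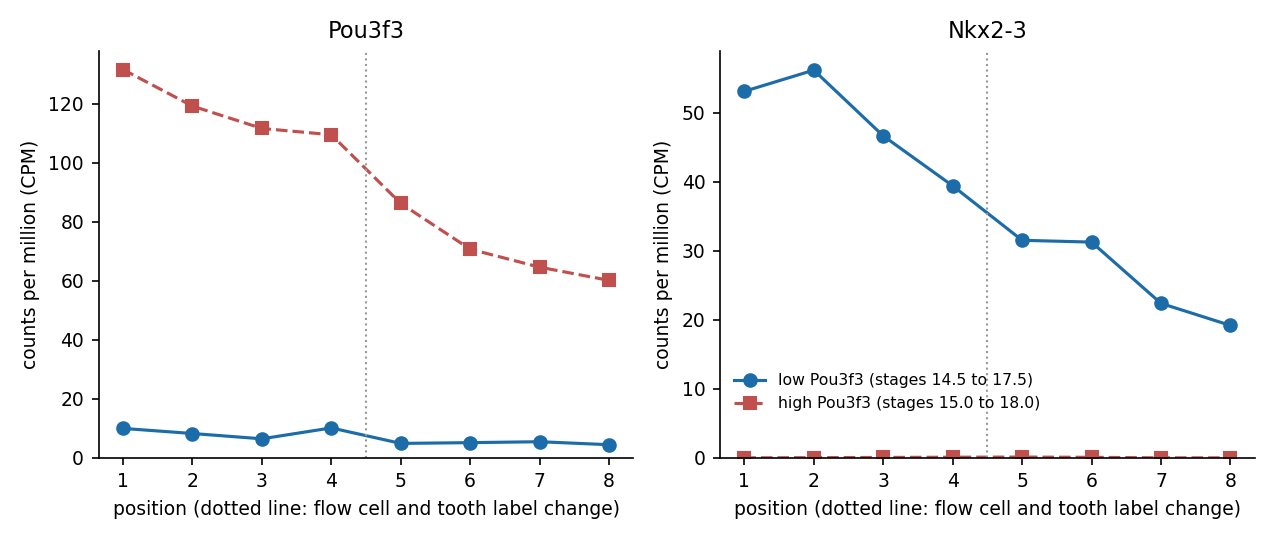
CPM of Pou3f3 and Nkx2-3 (vertical axes) at positions 1 to 8 (horizontal axes) in the 8 low Pou3f3 libraries (circles) and the 8 high Pou3f3 libraries (squares), 1 point a library. The dotted line marks the change of flow cell and of tooth label between positions 4 and 5. Nkx2-3 was 19.2 to 56.2 CPM in the low Pou3f3 libraries and at or near 0 in the high ones.

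Some facts of the libraries bear on every trend. The order of positions is not a labelled time, because positions 5 to 8 carry the stages of positions 1 to 4 again. No count fell on the 4 Y-linked genes examined in any of the 8 libraries, and Xist, which is expressed from an inactive X chromosome, was 431.8 CPM at position 5 and 1610 to 1833 CPM at the other 7 positions, although the embryos were labelled male. The flow cell, which the names of the files carry, changed together with the tooth label between positions 4 and 5, so that flow cell and labelled tooth cannot be told apart. Without position 5, 2063 genes rose and 1514 fell by the test given below.

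The 6 closest pairs of libraries were neighbours, positions 4 and 5 across the flow cell change among them. The root mean square difference over 15956 genes, on the log2 CPM scale, was 0.39 to 0.47 between neighbours, and it was 0.43 between positions 4 and 5. Positions 6 and 7, at 0.47, were farther apart than positions 6 and 8 (0.43) and positions 2 and 4 (0.46). Positions 1 and 5, which the labels put at the same stage and in the same embryo, differed by 0.63. The other labelled pairs differed by 0.66 (positions 2 and 6), 0.68 (positions 3 and 7) and 0.64 (positions 4 and 8). Positions 1 and 8 were the farthest apart, at 0.84. In a principal component analysis of the 500 most variable genes, component 1 held 67.3% of the variance. Its scores were -34.0, -30.9, -18.9, -11.1, 7.26, 17.7, 36.4 and 33.6 at positions 1 to 8, so position 7 passed position 8. Component 2 held 9.95% and was lowest at positions 7 and 1, at -15.0 and -12.1. Among reads counted to a gene, to no annotated feature or as ambiguous, the share on no feature also drifted. It went from 12.6% at position 1 to 14.2% at position 8, and its part in the trends was not tested.

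**Figure D2:**
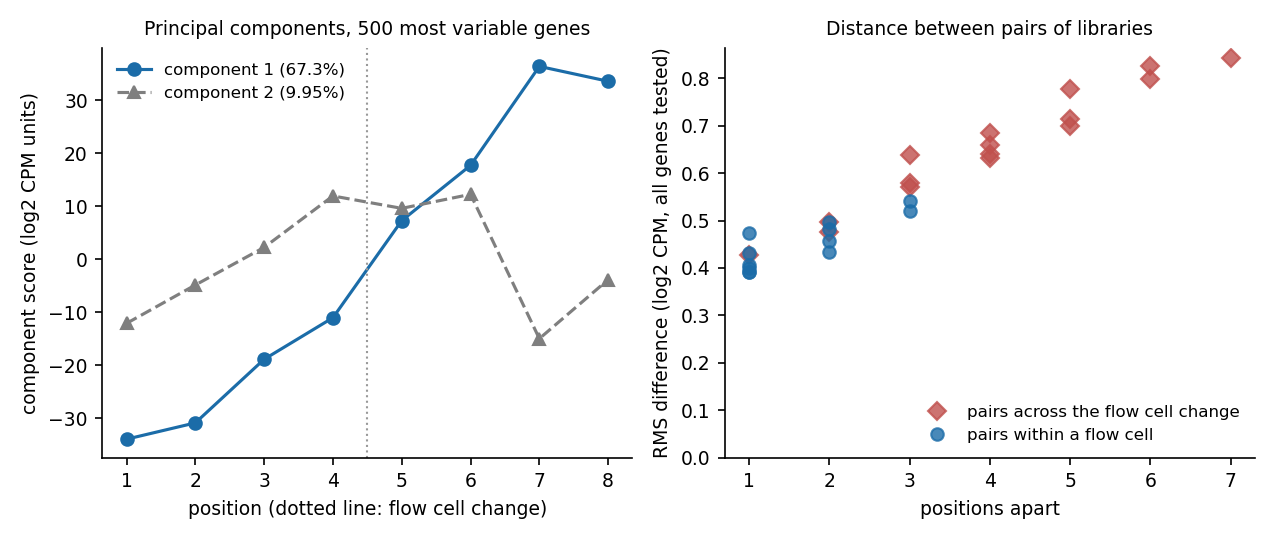
Left, scores of the first 2 principal components (vertical axis, log2 CPM units) against position in the 8 low Pou3f3 libraries, with the flow cell change as a dotted line. Right, root mean square log2 CPM difference of each pair of libraries against the number of positions between them, with pairs across the flow cell change as diamonds and pairs within a flow cell as circles. Component 1 ran from -34.0 at position 1 to 36.4 at position 7, and the distance between positions 4 and 5 was 0.43, within the 0.39 to 0.47 of all neighbours.

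Over the 8 positions, 2227 genes rose (14% of the 15956 tested) and 1759 fell (11%). Each gene was fitted with a straight line over position by edgeR's quasi-likelihood F test, and a call needed a Benjamini-Hochberg adjusted p under 0.05. A slope below is the log2 change per position with its standard error (SE), so that 0.14 amounts to about 1 log2 unit over the 7 steps of the order. The fitted change passed 2-fold over the order in 1068 rising genes and in 535 falling genes. Of the rising genes, 1642 (73.7%) also had a positive slope within positions 1 to 4 and within positions 5 to 8, each from 1 flow cell, and of the falling genes 1343 (76.4%) had a negative slope in both. Position 5 lay nearer to position 4 than to position 1 in 1854 rising and 1475 falling genes. All these genes were called for their slope over the same 8 positions, a choice that favours such counts. The counts of shared sign and of nearness are therefore a description only.

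The count of calls depended on what else was in the model. With flow cell as a further term, which is the same fit as labelled tooth plus labelled stage, 178 genes rose (1.12%) and 51 fell (0.32%). With the labelled embryo as a replicate block, 1525 rose (9.56%) and 1010 fell (6.33%). Without position 8, 1103 genes fell. With sequencing lane as a term (4 lanes of 2 neighbouring positions) none was called by edgeR, while 1299 genes had an unadjusted p under 0.05 and the smallest adjusted p was 0.0988. Under that fit 1811 of the 2227 rising genes and 1513 of the 1759 falling genes had the same sign.

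The steepest falls were of embryonic globin genes, which red cells of the yolk sac lineage express before the fetal liver takes over. Hbb-y (chromosome 7, 103851749 to 103853216), an embryonic beta-like globin gene, measured 95.0, 29.9, 15.45, 3.03, 0.779, 0.706, 0.278 and 0.175 CPM. It was lower at every step of the order. Its slope was -1.47 ± 0.066 (SE, adjusted p = 1.37e-06), and it was -1.52 at positions 1 to 4 and -0.75 at positions 5 to 8. Hba-x (chromosome 11, 32276400 to 32278116), the embryonic zeta globin gene, measured 16.6, 5.44, 5.26, 1.86, 0.752, 0.504, 0.362 and 0.1999 CPM, again lower at every step. Its slope was -0.93 ± 0.056 (SE, adjusted p = 7.75e-06), and it was -0.95 at positions 1 to 4 and -0.60 at positions 5 to 8. Hbb-bh1, a further embryonic beta-like globin gene, had 41, 16 and 6 counts at positions 1, 2 and 3 and none at positions 4 to 8. Set against a floor of 3 counts at position 8, its CPM was at least 16.1-fold higher at position 1. In bulk tissue, fewer cells of a type and less RNA per cell cannot be told apart.

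The 250 bases before the RefSeq transcription start site of Hbb-y, the steepest fall of the naming rule, are shown. Hba-x was looked up as well. A window was kept only where it held the motif below and reached little into the limits of its gene, and none was kept for Hba-x. Hbb-y matched the promoter table of RefSeq, build GRCm38.p6 (the assembly of mm10). Capitals mark CCACCC, the core of the CACC box that erythroid Krüppel-like factors bind in globin promoters, which was searched on both strands.
Hbb-y, chr7:103853208-103853457, minus strand: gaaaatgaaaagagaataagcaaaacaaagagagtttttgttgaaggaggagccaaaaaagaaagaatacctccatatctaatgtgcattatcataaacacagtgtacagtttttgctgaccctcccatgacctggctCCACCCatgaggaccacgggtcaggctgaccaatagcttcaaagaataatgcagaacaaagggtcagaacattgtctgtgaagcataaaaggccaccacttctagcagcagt
The window held 1 match, starting at base -112 counted from the start site, and no match on the other strand. The last 9 bases lie inside the GENCODE limits of the gene. CCACCC or its reverse complement occurred in 9223 of the 32851 windows of the table (28.1%), so a match is a description of these letters.

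The naming rule gave another 7 steep falling genes that are described here. Cyp26b1 (chromosome 6, 84571414 to 84593908), whose enzyme degrades retinoic acid, measured 129.1, 119.5, 62.0, 53.8, 25.5, 9.61, 17.8 and 9.84 CPM. Its slope was -0.57 ± 0.057 (SE, adjusted p = 9.26e-05), with its lowest values at positions 6 and 8. Bmper (chromosome 9, 23223076 to 23485200), which encodes a secreted binder of Bmp proteins, measured 42.4, 31.3, 19.1, 7.78, 9.37, 4.36, 3.29 and 3.35 CPM, with a slope of -0.58 ± 0.045 (SE, adjusted p = 2.33e-05). Agtr2, the type 2 angiotensin II receptor gene, measured 36.0, 19.4, 10.4, 5.13, 3.81, 2.50, 2.76 and 1.67 CPM, with a slope of -0.63 ± 0.049 (SE, adjusted p = 2.33e-05). The chemokine gene Cxcl5 measured 9.73, 9.93, 9.25, 5.36, 1.93, 0.857, 0.919 and 0.250 CPM. Its 3 first values were alike and the fall began at position 4, with a slope of -0.76 ± 0.086 (SE, adjusted p = 2.15e-04).

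Chodl, the gene of the lectin chondrolectin, measured 75.0, 78.1, 49.1, 40.0, 19.3, 5.22, 14.53 and 5.05 CPM. The transcription factor gene Dmrt2 measured 14.4, 10.1, 10.7, 5.07, 2.60, 0.454, 2.28 and 0.450 CPM. Both were lower at position 6 than at position 7, and their slopes were -0.57 ± 0.077 (SE, adjusted p = 6.01e-04) for Chodl and -0.65 ± 0.10 (SE, adjusted p = 0.00153) for Dmrt2. Slc5a7, the choline transporter gene, measured 4.03, 3.63, 1.86, 1.09, 0.671, 0.277, 0.362 and 0.350 CPM, with a slope of -0.61 ± 0.062 (SE, adjusted p = 1.08e-04). In the fit with a flow cell term Hbb-y, Hba-x, Agtr2 and Bmper were also past the threshold, and the other 5 given here were not.

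The steepest rises held genes of mucosal and cornifying epithelium beside genes with other roles. Sprr3 (chromosome 3, 92456502 to 92458720), a cornified envelope gene, measured 0.265, 0.0778, 1.91, 0.530, 4.30, 4.49, 97.2 and 23.2 CPM. Krt4 (chromosome 15, 101918535 to 101924735), a keratin gene of stratified mucosa, measured 0.617, 2.31, 4.40, 4.68, 24.0, 26.2, 364.2 and 96.6 CPM. Both were highest at position 7 and lower again at position 8. Their slopes were 1.35 ± 0.22 (SE, adjusted p = 0.00167) for Sprr3 and 1.31 ± 0.17 (SE, adjusted p = 4.97e-04) for Krt4. Serpinb3a, a protease inhibitor gene, measured 0.0294, 0.0778, 2.10, 0.442, 2.74, 3.10, 23.1 and 3.55 CPM, and Cyp2f2, a cytochrome P450 gene, measured 0.0882, 0.207, 0.917, 0.589, 3.09, 1.79, 20.0 and 5.17 CPM. Both were also highest at position 7. Their slopes were 0.93 ± 0.21 (SE, adjusted p = 0.0105) for Serpinb3a and 0.99 ± 0.16 (SE, adjusted p = 0.00188) for Cyp2f2. Without position 7 the slope of Serpinb3a was 0.60 (adjusted p = 0.0601), which did not pass the threshold. With the lane term, which sets position 7 against position 8 directly, the slopes of Sprr3, Krt4, Serpinb3a and Cyp2f2 were negative (-1.27, -0.49, -1.47 and -1.08), with adjusted p of 0.453 or more.

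Another 5 rising genes climbed without that excess at position 7. Igfbpl1 (chromosome 4, 45809468 to 45826923), an insulin-like growth factor binding protein-like gene, measured 0.617, 2.38, 4.05, 13.2, 43.5, 82.3, 103.4 and 111.4 CPM, higher at each step. Its slope was 1.05 ± 0.10 (SE, adjusted p = 7.56e-05). Ecel1 (chromosome 1, 87147655 to 87156521), a neutral endopeptidase family gene, measured 0.617, 1.06, 2.97, 6.19, 16.8, 35.4, 41.3 and 55.6 CPM, also higher at each step, with a slope of 0.96 ± 0.07 (SE, adjusted p = 1.57e-05). Gpr115, an adhesion G protein-coupled receptor gene, measured 1.499, 1.04, 4.59, 7.19, 23.0, 46.6, 63.9 and 85.6 CPM, with a slope of 0.96 ± 0.068 (SE, adjusted p = 1.41e-05). Bmp8a, a Bmp ligand gene, measured 0.206, 0.104, 0.674, 0.943, 1.42, 3.63, 5.23 and 12.2 CPM, with a slope of 0.90 ± 0.059 (SE, adjusted p = 1.01e-05). Tbx22, a T-box gene of the palate, measured 0.353, 0.285, 0.459, 2.68, 7.87, 8.40, 13.5 and 14.3 CPM, with a slope of 0.89 ± 0.11 (SE, adjusted p = 3.78e-04). The flow cell term left Ecel1, Gpr115 and Bmp8a past the threshold and Igfbpl1 and Tbx22 short of it.

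**Figure D3:**
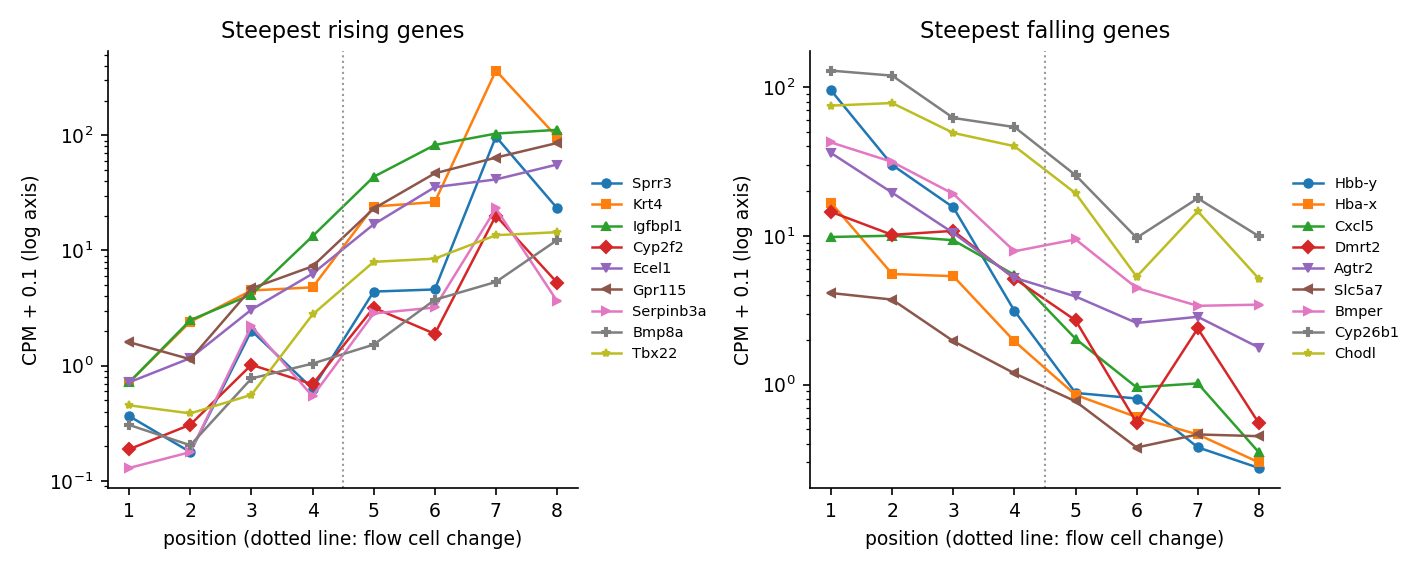
CPM plus 0.1 on a log axis (vertical) against position (horizontal) for 9 of the 10 steepest rising genes (left) and 9 of the 10 steepest falling genes (right) in the 8 low Pou3f3 libraries, 1 point a library, with the flow cell change as a dotted line. Krt4 and Sprr3 peaked at position 7, at 364.2 and 97.2 CPM, and Hbb-y was 95.0 CPM at position 1 and 0.175 CPM at position 8.

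A curved trend was called in few genes. The squared term of position passed the threshold, with its maximum between positions 2 and 7, in 35 peaking genes (0.219% of 15956), and with its minimum there in 19 dipping genes (0.119%). A linear or curved trend together was called in 3444 genes (21.6%). The middle of the order is also the flow cell change. In the 8 peaking genes named by the rule, slopes were positive within positions 1 to 4 and negative within positions 5 to 8. The rule favours this shape, and the part of the flow cell in it was not tested. The counts changed with single libraries at the ends and the middle. Without position 1, 8 genes peaked and 0 dipped, without position 4 the counts were 11 and 5, without position 5 they were 2 and 1, and without position 8 they were 14 and 3. Without position 6, 59 peaked and 25 dipped.

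Smoc1 (chromosome 12, 81026808 to 81186414) was the clearest peaking gene, and its relative Smoc2 (chromosome 17, 14279506 to 14404790) followed the same shape. Both encode secreted calcium-binding matrix proteins. Smoc1 measured 17.8, 33.4, 59.7, 83.8, 82.3, 58.4, 42.2 and 26.5 CPM, with its high values at positions 4 and 5 and lower values at both ends. The squared term was -0.16 ± 0.0096 (SE, adjusted p = 3.98e-04), the fitted maximum lay at position 4.71, and the slope was 0.75 at positions 1 to 4 and -0.53 at positions 5 to 8. Smoc2 measured 262.5, 320.5, 488.9, 578.5, 622.8, 449.7, 422.5 and 342.1 CPM. Its squared term was -0.078 ± 0.0098 (SE, adjusted p = 0.0199), its fitted maximum lay at position 4.84, and its slope was 0.40 at positions 1 to 4 and -0.26 at positions 5 to 8. The call for Smoc2 was lost without position 1, 4, 5 or 8 (adjusted p up to 0.0814). The squared term of Smoc1 passed the threshold with each of the 8 libraries left out in turn.

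The 6 other peaking genes by the rule were less abundant. Pdlim3, an actin-associated PDZ and LIM protein gene, measured 1.88, 4.74, 11.3, 21.7, 15.6, 12.0, 9.22 and 7.60 CPM. Lypd1, a Ly6 family gene, measured 4.88, 8.47, 12.0, 21.7, 20.9, 23.9, 16.48 and 12.9 CPM. Jakmip2, a Janus kinase and microtubule interacting protein gene, measured 6.47, 9.85, 13.5, 19.7, 24.4, 22.4, 12.1 and 13.1 CPM. Pdlim3 was highest at position 4, Lypd1 at position 6 and Jakmip2 at position 5. Sgpp2, a sphingosine-1-phosphate phosphatase gene, measured 3.73, 8.84, 10.1, 11.5, 13.2, 9.38, 5.57 and 4.77 CPM, and the melatonin receptor-related gene Gpr50 measured 1.88, 2.59, 3.48, 4.66, 4.51, 4.19, 1.73 and 0.974 CPM. S100a3, an S100 calcium-binding protein gene, measured 0.705, 1.63, 1.75, 2.68, 3.12, 2.70, 2.31 and 1.47 CPM. Their adjusted p for the squared term ran from 0.00917 for Lypd1 to 0.0474 for S100a3. All 6 lost the call without position 1 and without position 5, with adjusted p of up to 0.285 for S100a3.

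The 5 dipping genes were lowest at position 4, or at position 5 for Cdh23, and higher again at position 8. Klf4, a transcription factor gene of epithelial differentiation, measured 50.2, 43.0, 34.1, 28.6, 31.4, 34.5, 51.4 and 58.5 CPM, with a squared term of 0.074 ± 0.0084 (SE, adjusted p = 0.0128). Fam20a, a gene needed for enamel formation, measured 4.204, 2.10, 2.35, 1.74, 2.20, 2.50, 4.93 and 6.87 CPM, with a squared term of 0.12 ± 0.017 (SE, adjusted p = 0.0273). Rspo4, a secreted enhancer of Wnt signalling, measured 23.3, 20.5, 12.9, 10.4, 23.3, 39.1, 44.8 and 138.3 CPM, with a squared term of 0.14 ± 0.021 (SE, adjusted p = 0.0262). Its position 8 value was the highest by far, and its linear slope of 0.37 ± 0.089 (SE, adjusted p = 0.0135) was 0.19 without position 8 (adjusted p = 0.153). Cdh23, a cadherin gene, measured 1.32, 0.622, 0.755, 1.09, 0.618, 1.01, 2.53 and 12.3 CPM, and Chordc1, an Hsp90-binding protein gene, measured 107.9, 62.5, 61.6, 60.9, 73.5, 62.2, 76.5 and 116.8 CPM. The ends of the order, position 8 for Cdh23 and positions 1 and 8 for Chordc1, stood above the rest. All 5 squared terms lost the call without position 1 and without position 5, and Klf4, with an adjusted p of up to 0.0762, came nearest to keeping it.

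**Figure D4:**
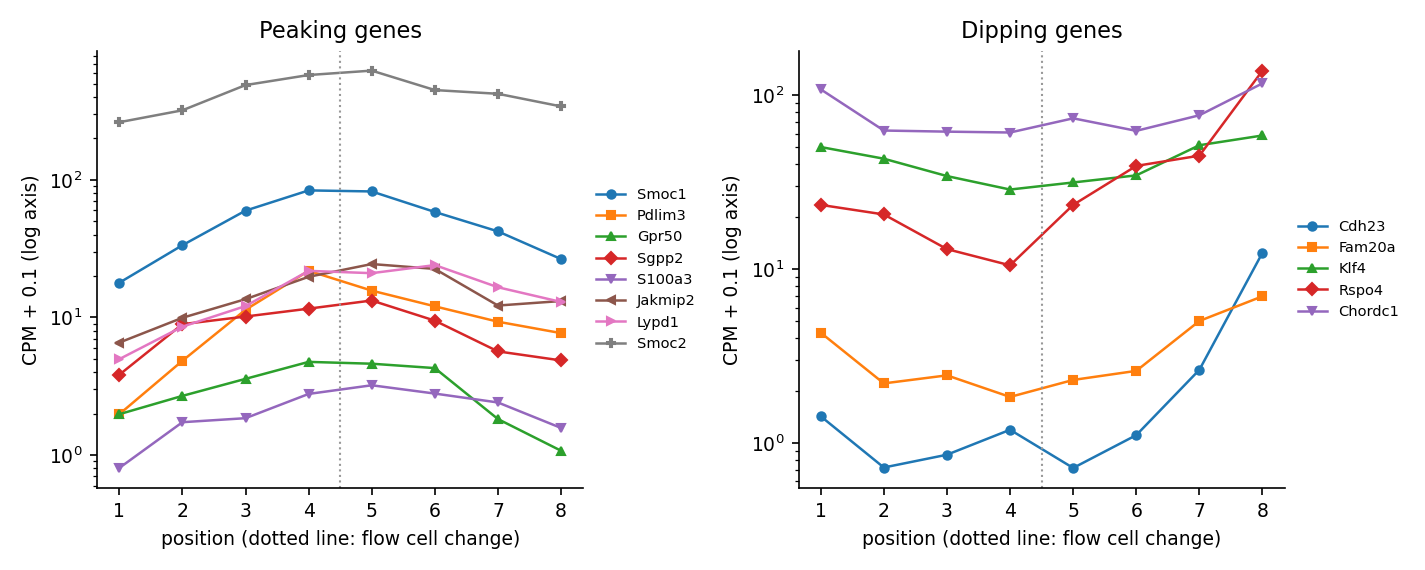
CPM plus 0.1 on a log axis (vertical) against position (horizontal) for the 8 peaking genes (left) and the 5 dipping genes (right) named by rule in the 8 low Pou3f3 libraries, with the flow cell change as a dotted line. Smoc1 was 83.8 and 82.3 CPM at positions 4 and 5, against 17.8 CPM at position 1 and 26.5 CPM at position 8.

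Of the 33 gene lists, the enamel knot signals and their partners showed both directions. Each list count is to be read against the shares of all genes tested, 14% rising and 11% falling. In the enamel knot list 7 of 18 tested members rose and 3 fell, with a median slope of 0.077, against a median of -0.0022 over all 15956 genes. Shh (chromosome 5, 28456815 to 28467256), the knot's Hedgehog ligand gene, measured 63.5, 87.4, 87.7, 146.5, 286.8, 398.3, 488.1 and 602.2 CPM, with a slope of 0.51 ± 0.032 (SE, adjusted p = 8.13e-06). Its largest step was between positions 4 and 5, and its slope was 0.36 at positions 1 to 4 and 0.36 at positions 5 to 8. The homeobox gene Msx2 measured 25.5, 39.2, 48.4, 71.5, 122.7, 138.4, 169.2 and 238.1 CPM, with a slope of 0.46 ± 0.021 (SE, adjusted p = 1.70e-06). The ectodysplasin receptor gene Edar and the Wnt transcription factor gene Lef1 peaked instead. Edar measured 12.4, 19.7, 27.1, 27.8, 34.8, 33.4, 29.2 and 23.0 CPM, with a squared term of -0.075 ± 0.0074 (SE, adjusted p = 0.00826), and Lef1 measured 92.1, 94.9, 118.2, 127.4, 117.1, 99.1, 79.1 and 68.1 CPM, with a squared term of -0.05 ± 0.007 (SE, adjusted p = 0.0262). The call was lost without position 1, 5 or 8 (adjusted p up to 0.0678) for Edar and without position 1, 4, 5 or 8 (adjusted p up to 0.112) for Lef1. The 3 members that fell were Fgf20, Bmp4 and Dkk4, named after their values were seen, with slopes of -0.35 ± 0.046, -0.12 ± 0.017 and -0.13 ± 0.035, and Dkk4 lost its call with the replicate block (adjusted p = 0.0948) and without position 1, 7 or 8 (adjusted p up to 0.122).

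In the Hedgehog pathway 4 of 12 tested members rose and 6 fell, with a median slope of -0.038. Among the genes that rose were Shh, its receptor gene Ptch1 and the binding protein gene Hhip, which measured 40.5, 35.6, 39.9, 45.0, 72.7, 118.6, 140.2 and 170.4 CPM (slope 0.35 ± 0.036 SE, adjusted p = 1.17e-04). The falling ones held all 3 Gli transcription factor genes and the coreceptor gene Boc, which measured 80.2, 75.9, 70.2, 61.0, 56.0, 39.8, 39.9 and 38.6 CPM (slope -0.17 ± 0.017 SE, adjusted p = 7.72e-05). Gli2 had a slope of -0.11 ± 0.016 (SE, adjusted p = 0.00106). Gli1, a target gene of the pathway named after its values were seen, fell by a small slope of -0.053 ± 0.013 (SE, adjusted p = 0.0124), its adjusted p was 0.0740 with the replicate block, its call was lost without position 8 (adjusted p = 0.0644), and its slope within positions 1 to 4 was 0.0028.

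In the Fgf pathway 8 of 21 tested members rose and 4 fell, with a median slope of 0.03, and with the replicate block 7 rose and 2 fell. Fgf9, an epithelial ligand gene, measured 5.44, 6.14, 8.98, 13.9, 17.97, 24.2, 25.9 and 23.7 CPM (slope 0.36 ± 0.037 SE, adjusted p = 1.10e-04), and Fgf3, a ligand gene of knot and mesenchyme, measured 15.02, 15.6, 16.2, 17.1, 20.3, 33.1, 43.1 and 47.5 CPM (slope 0.27 ± 0.031 SE, adjusted p = 2.22e-04). The receptor gene Fgfr1 rose with a slope of 0.11 ± 0.01 (SE, adjusted p = 5.93e-05). The ligand gene Fgf18 fell, with 3.09 CPM at position 1 and 0.325 CPM at position 8 and a slope of -0.54 ± 0.058 (SE, adjusted p = 1.50e-04).

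In the Bmp pathway 12 of 23 tested members rose and 5 fell, with a median slope of 0.058. The pseudoreceptor gene Bambi measured 44.6, 46.5, 51.6, 68.9, 95.8, 117.3, 140.6 and 180.6 CPM (slope 0.31 ± 0.017 SE, adjusted p = 5.46e-06), and the target gene Id4 rose with a slope of 0.25 ± 0.016 (SE, adjusted p = 8.24e-06). The ligand gene Bmp6 measured 33.7, 28.8, 23.1, 17, 15.4, 10.9, 10.5 and 6.65 CPM (slope -0.32 ± 0.019 SE, adjusted p = 7.15e-06), so the ligands of the list did not share a direction. Smoc2, given above, was the peaking member.

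In the Wnt pathway 12 of 33 tested members rose and 9 fell, with a median slope of 0.00086. Rspo3, a secreted enhancer of Wnt signalling like Rspo4, measured 20.5, 19.02, 12.0, 8.13, 4.86, 2.62, 2.28 and 2.00 CPM (slope -0.55 ± 0.036 SE, adjusted p = 9.80e-06), and the ligand gene Wnt2 fell with 3.09 CPM at position 1 and 0.04997 CPM at position 8 (slope -0.92 ± 0.078 SE, adjusted p = 3.51e-05). In the ectodysplasin pathway 2 of 7 tested members rose and 0 fell, with a median slope of 0.0092. The adaptor gene Edaradd measured 26.9, 31.4, 39.0, 49.1, 51.0, 65.5, 69.1 and 82.9 CPM (slope 0.23 ± 0.013 SE, adjusted p = 5.74e-06), rising at each step while its receptor gene Edar peaked. The other member that rose was Tnfrsf19, with a slope of 0.11 ± 0.022 (SE, adjusted p = 0.00430), and the receptor gene Eda2r had -0.10 ± 0.042 and did not pass the test.

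In the Notch pathway 7 of 15 tested members rose and 2 fell, with a median slope of 0.047. The target gene Hey2 measured 5.56, 6.95, 12.2, 15.2, 20.1, 21.3, 25.6 and 22.4 CPM (slope 0.31 ± 0.041 SE, adjusted p = 5.37e-04), while its relative Hey1 dipped, with 50.1, 37.9, 38.2, 32.0, 37.1, 38.0, 38.1 and 56.8 CPM and a squared term of 0.051 ± 0.0083 (SE, adjusted p = 0.0415). The call for Hey1 was lost without position 1, 2, 3, 4, 5, 6 or 8 (adjusted p up to 0.285). The receptor gene Notch2 and the ligand gene Jag2 rose with slopes of 0.14 ± 0.021 (SE, adjusted p = 8.92e-04) and 0.084 ± 0.014 (SE, adjusted p = 0.00186). In the activin and Tgfb pathway 1 of 14 tested members rose and 2 fell, against 14% and 11% of all genes tested. The median slope was -0.0053. The matrix gene Tgfbi rose (slope 0.21 ± 0.027 SE, adjusted p = 4.35e-04). The ligand subunit gene Inhba and the Tgfb-binding gene Ltbp1 fell (slopes -0.11 ± 0.029 SE, adjusted p = 0.0192 and -0.082 ± 0.018 SE, adjusted p = 0.00863), and Inhba lost its call with the replicate block (adjusted p = 0.0777). Inhba also lost it without position 2 or 7 (adjusted p up to 0.0660), and Ltbp1 without position 1 (adjusted p = 0.0510). Tgfb1 had 0.058 ± 0.024 and did not pass.

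Retinoic acid genes moved in both directions. In that list 7 of 13 tested members rose and 4 fell, with a median slope of 0.073. Cyp26c1 (chromosome 19, 37685581 to 37693398), which encodes a retinoic acid degrading enzyme, measured 13.4, 35.2, 64.2, 98.3, 150.7, 161.4, 191.7 and 132.7 CPM. Its squared term was -0.12 ± 0.0084 (SE, adjusted p = 5.46e-04) with a fitted maximum at position 6.44, while its relative Cyp26b1 fell, as given above. Aldh1a3, a retinoic acid synthesis gene, measured 30.8, 33.0, 67.7, 75.3, 129.2, 168.7, 178.8 and 183.2 CPM (slope 0.42 ± 0.039 SE, adjusted p = 7.15e-05). The binding protein gene Crabp2 fell (slope -0.20 ± 0.017 SE, adjusted p = 3.80e-05). Rdh10, which makes the precursor retinaldehyde, measured 22.4, 19.5, 21.5, 21.5, 23.4, 31.2, 34.6 and 57.8 CPM, with a squared term of 0.054 ± 0.008 (SE, adjusted p = 0.0282) whose call was lost without position 1, 4, 5 or 8 (adjusted p up to 0.172). Its slope was 0.19 ± 0.036 (SE, adjusted p = 0.00369), it was 0.12 without position 8, and its adjusted p was 0.0563 with the replicate block. The squared term of Cyp26c1 passed the threshold with each library left out in turn.

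Dental epithelial genes moved both ways. In the dental epithelium list 5 of 20 tested members rose and 7 fell, with a median slope of -0.011, and with the replicate block 3 rose and 7 fell. Sp6 (chromosome 11, 97013394 to 97024734), a transcription factor gene needed for ameloblasts, measured 117.0, 192.5, 236.1, 307.8, 483.4, 695.3, 861.8 and 1049 CPM, higher at each step, with a slope of 0.46 ± 0.018 (SE, adjusted p = 9.84e-07). The P-cadherin gene Cdh3 rose with a slope of 0.11 ± 0.013 (SE, adjusted p = 2.52e-04). Sox2, a transcription factor gene of dental epithelial stem cells, measured 43.6, 42.9, 40.7, 26.7, 19.1, 8.85, 13.3 and 6.90 CPM (slope -0.40 ± 0.046 SE, adjusted p = 2.29e-04). The keratin genes Krt14, Krt15 and Krt17, named after their values were seen, fell with slopes of -0.095 ± 0.023, -0.24 ± 0.061 and -0.10 ± 0.022, though their slopes within positions 1 to 4 were positive. The call for Krt15 was lost without position 8 (adjusted p = 0.0996). In the ameloblast and enamel matrix list 3 of the 6 tested members rose and 0 fell, with a median slope of 0.17. They were Sp6, Dlx3 and Enam. Dlx3, a homeobox gene, measured 74.8, 104.7, 128.2, 167.9, 221.2, 257.9, 253.4 and 323.6 CPM (slope 0.29 ± 0.021 SE, adjusted p = 1.41e-05), and the enamel matrix gene Enam had 0.147 CPM at position 1 and 1.70 CPM at position 8 (slope 0.65 ± 0.11 SE, adjusted p = 0.00246). Fam83h had 0.052 ± 0.018 and did not pass, and neither did the tested members Ambn and Odam. Enam did not reach the filter on low counts in the fit on positions 1 to 4 alone, and without it Sp6 and Dlx3 rose. The enamel matrix genes Amelx and Amtn, the enamel protease genes Klk4 and Mmp20, and Slc24a4 were below the filter on low counts.

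In the oral cornifying epithelium list 7 of 11 tested members rose and 0 fell, with a median slope of 0.57. Crct1 reached the filter only at positions 7 and 8, where it was high, and without it 6 of 10 rose, with a median slope of 0.56. The summed level of the list was 195.9 to 441.1 CPM at positions 1 to 4 and 312.1 to 1876 CPM at positions 5 to 8, and its highest, 1876 CPM, was at position 7. Cnfn and Crct1, genes of the cornified envelope, measured 0.118, 0.0518, 0.512, 0.265, 1.13, 1.41, 33.7 and 5.67 CPM and 0.0294, 0.0259, 0, 0.0295, 0.0806, 0.101, 10.4 and 2.25 CPM. Cnfn did not reach the filter in the fit on positions 1 to 4 alone, and the 6 of 10 hold it. The slope of Cnfn was 1.36 ± 0.24 (SE, adjusted p = 0.00237). Without position 7 it was 0.85 (adjusted p = 3.99e-04). Ivl was below the filter. The part of oral epithelium in the epithelial trends was not tested. Without position 7, 2064 genes rose and 1613 fell.

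More of the dental mesenchyme genes fell than rose. In the dental mesenchyme list 4 of 21 tested members rose and 12 fell, with a median slope of -0.12. Those that rose were Zeb1, Pdgfra, Dlx2 and Fgf3. Tfap2b (chromosome 1, 19208914 to 19238576), a transcription factor gene of neural crest mesenchyme, measured 353.1, 352.4, 240.2, 198.8, 143.9, 103.9, 80.7 and 55.1 CPM, lower at each step, with a slope of -0.40 ± 0.019 (SE, adjusted p = 1.70e-06) that was -0.31 at positions 1 to 4 and -0.44 at positions 5 to 8. Prrx1, a homeobox gene of limb and face mesenchyme, measured 591.3, 460.0, 361.7, 295.0, 236.6, 184.4, 189.6 and 152.5 CPM (slope -0.28 ± 0.017 SE, adjusted p = 7.75e-06). The homeobox genes Msx1 and Lhx8, named after their values were seen, fell as well, with slopes of -0.27 ± 0.026 (SE, adjusted p = 7.56e-05) and -0.25 ± 0.019 (SE, adjusted p = 1.65e-05). Barx1, a homeobox gene of molar mesenchyme, peaked, with 177.7, 208.2, 240.7, 281.9, 292.3, 257.7, 272.7 and 204.2 CPM and a squared term of -0.044 ± 0.0063 (SE, adjusted p = 0.0268). Lum, a small proteoglycan gene, dipped, with 368.1, 327.3, 318.4, 307.5, 307.9, 296.7, 444.4 and 570.0 CPM and a squared term of 0.053 ± 0.0082 (SE, adjusted p = 0.0356). These curved calls were lost without position 1, 4, 5 or 8 (adjusted p up to 0.126) for Barx1 and without position 1, 2, 4, 5, 7 or 8 (adjusted p up to 0.146) for Lum.

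Genes of the jaw arches were followed because Pou3f3 is one of them. In the maxillary arch and palate list 1 of 7 tested members rose and 5 fell, with a median slope of -0.16, a count that holds Pou3f3, whose level went into the choice of libraries. Without it, 4 of 6 fell. The homeobox gene Shox2 measured 31.3, 27.0, 28.2, 20.6, 14.7, 12.6, 13.6 and 12.2 CPM (slope -0.22 ± 0.026 SE, adjusted p = 2.97e-04), and the homeobox cofactor genes Meis2 and Meis1 had slopes of -0.47 ± 0.062 (SE, adjusted p = 4.96e-04) and -0.20 ± 0.029 (SE, adjusted p = 0.00102). The rising member was Tbx22. In the mandibular arch list 3 of 8 tested members rose and 3 fell, with a median slope of 0.10. Those that fell were Gsc, Pitx1 and Nkx2-3, and the level of Nkx2-3 went into the choice of libraries in the same way. With the replicate block 3 rose and 1 fell, and neither count was taken without Nkx2-3. The homeobox gene Dlx5 measured 54.1, 77.5, 86.9, 115.6, 149.7, 170.6, 164.4 and 177.8 CPM (slope 0.25 ± 0.025 SE, adjusted p = 1.09e-04), and Dlx4 levelled off after position 6, with 4.88, 7.13, 10.8, 16, 20.1, 27.8, 26.9 and 28.9 CPM and a squared term of -0.052 ± 0.0087 (SE, adjusted p = 0.0473) that was past the threshold only with all 8 libraries in the fit. Hand2 and Isl1 were below the filter.

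**Figure D5:**
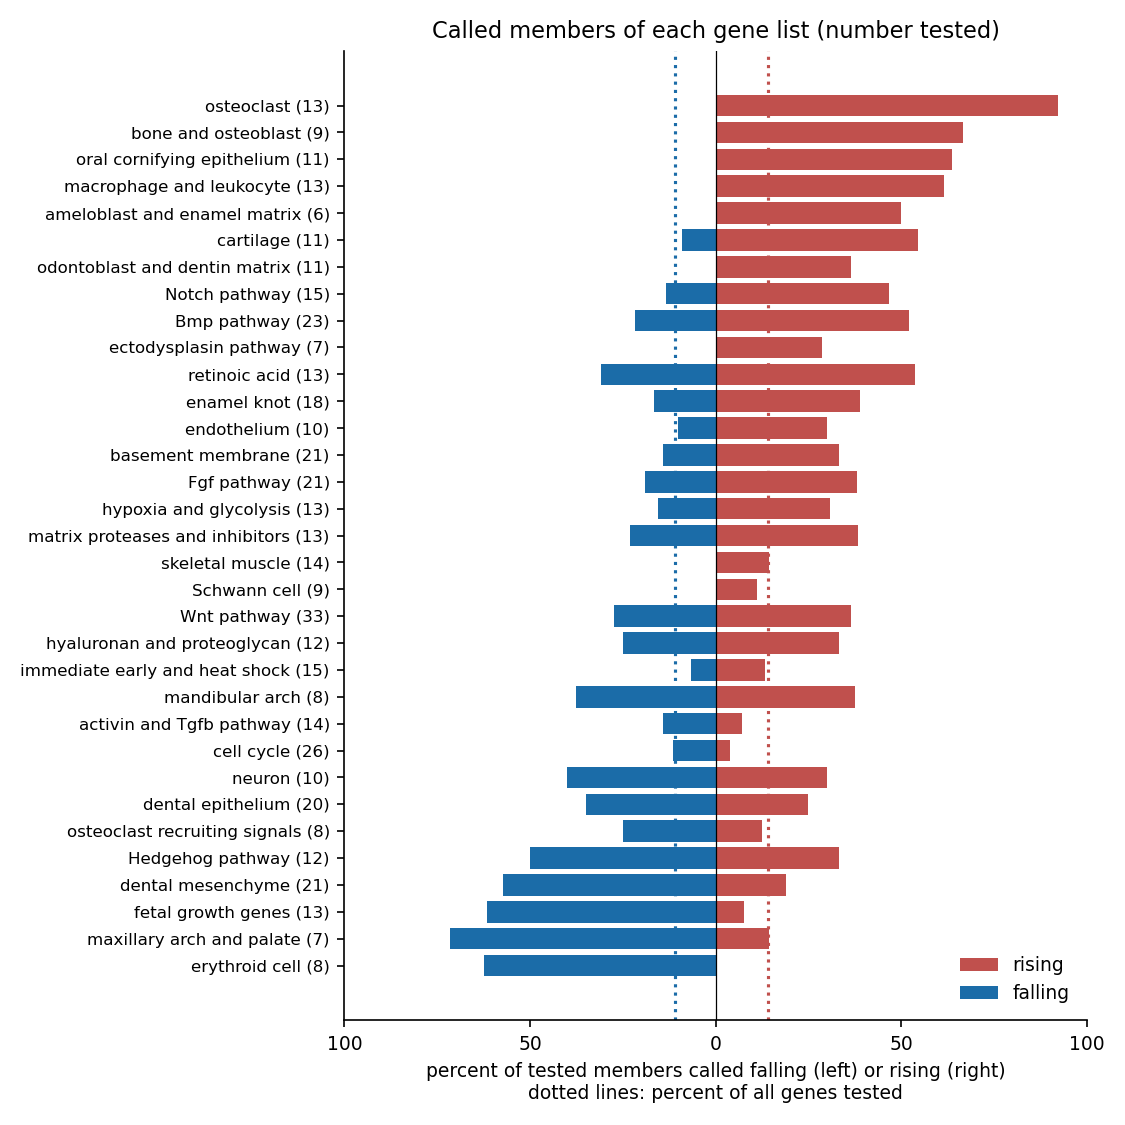
Percent of the tested members of each of the 33 gene lists that rose (right) or fell (left) over the 8 positions, with the number tested in brackets. The dotted lines are the same percentages over all genes tested, 14% rising and 11% falling. The osteoclast list had the largest rising share, 12 of 13, and in the maxillary list 5 of 7 fell, or 4 of 6 without Pou3f3, whose level went into the choice of libraries.

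Genes of mineralised tissue were followed in 2 lists. In the odontoblast and dentin matrix list 4 of 11 tested members rose and 0 fell, with a median slope of 0.045. Smpd3, a sphingomyelinase gene of mineralising tissue, measured 91.6, 57.4, 103.1, 167.1, 202.8, 189.8, 241.2 and 318.7 CPM (slope 0.30 ± 0.041 SE, adjusted p = 6.38e-04). The phosphatase gene Alpl measured 128.0, 96.3, 145.3, 151.3, 224.8, 173.1, 217.8 and 243.4 CPM (slope 0.16 ± 0.029 SE, adjusted p = 0.00316), and the matrix genes Sparc and Col1a1 had slopes of 0.063 ± 0.016 (SE, adjusted p = 0.0157) and 0.12 ± 0.031 (SE, adjusted p = 0.0202). These 2 calls were lost without position 8 (adjusted p = 0.0575) for Sparc and without position 8 (adjusted p = 0.136) for Col1a1. The dentin gene Dspp was below the filter, at 0 CPM at positions 1 to 7. In the bone and osteoblast list 6 of 9 tested members rose and 0 fell, with a median slope of 0.15. The collagenase gene Mmp13 measured 2.15, 3.27, 18.1, 14.8, 40.5, 64.0, 102.1 and 122.4 CPM (slope 0.81 ± 0.074 SE, adjusted p = 5.78e-05), Spp1, the osteopontin gene, measured 2.998, 1.09, 7.88, 16.9, 20.7, 26.9, 50 and 45.5 CPM (slope 0.66 ± 0.09 SE, adjusted p = 6.17e-04), and Omd rose with a slope of 0.25 ± 0.033 (SE, adjusted p = 4.96e-04).

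Osteoclast genes had the largest rising share of the lists. There 12 of 13 tested members rose and 0 fell, with a median slope of 0.34, and the summed level was 367.9 to 398.0 CPM at positions 1 to 4 and 647.8 to 1261 CPM at positions 5 to 8. The phosphatase gene Acp5 measured 43.9, 32.0, 44.5, 53.6, 107.3, 195.9, 226.3 and 272.2 CPM (slope 0.47 ± 0.049 SE, adjusted p = 1.29e-04), and the gelatinase gene Mmp9 measured 106.4, 91.2, 127.5, 124.5, 240.9, 380.2, 360.5 and 473.0 CPM (slope 0.36 ± 0.038 SE, adjusted p = 1.25e-04). In both, positions 1 to 4 lay below positions 5 to 8 without overlap. Other rising genes given in this text, such as Shh, Msx2, Sp6, Bambi and Ccnd1, did the same, so the gap is not particular to this list. The share of all genes with such a gap was not counted. Atp6v0d2, a proton pump subunit gene, had 6.38 CPM at position 1 and 22.7 CPM at position 8 (slope 0.34 ± 0.051 SE, adjusted p = 0.00109), and Nfatc1, the osteoclast transcription factor gene, a slope of 0.14 ± 0.018 (SE, adjusted p = 4.89e-04). With the flow cell term 0 of the 13 passed the threshold, and with the replicate block 11 did. Ctsk, the cathepsin K gene, was the member that did not pass, with 75.6, 65.8, 15.1, 19.7, 51.1, 259.0, 196.3 and 226.5 CPM.

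The osteoclast recruiting signals were also followed. Of these, 1 of 8 tested members rose and 2 fell, against 14% and 11% of all genes tested, with a median slope of 0.031. Tnfrsf11b, the gene of the decoy receptor osteoprotegerin, was the rising one and dipped first, with 4.38, 3.40, 3.21, 2.48, 4.35, 4.61, 6.79 and 11.2 CPM and a squared term of 0.089 ± 0.015 (SE, adjusted p = 0.0473), a call lost when any 1 position was left out (adjusted p up to 0.285). Its linear slope was 0.21 ± 0.058 (SE, adjusted p = 0.0275), with an adjusted p of 0.128 under the replicate block, and it lost the call without position 2, 3, 7 or 8 (adjusted p up to 0.240). The chemokine genes Cxcl12 and Cx3cl1 fell (slopes -0.12 ± 0.022 SE, adjusted p = 0.00372 and -0.16 ± 0.036 SE, adjusted p = 0.00829), and Tnfsf11, the RANKL gene, had 0.12 ± 0.047 and did not pass. In the macrophage and leukocyte list 8 of 13 tested members rose and 0 fell, with a median slope of 0.17, and the sum was 82.2 to 104.8 CPM at positions 1 to 4 and 138.2 to 181.8 CPM at positions 5 to 8. Csf1r, the receptor gene of the macrophage growth factor, measured 20.8, 21.2, 26.8, 27.2, 47.4, 60.4, 60.4 and 63.0 CPM (slope 0.28 ± 0.028 SE, adjusted p = 9.97e-05). C1qa, Itgam and Cd68 had slopes of 0.24 ± 0.027 (SE, adjusted p = 2.03e-04), 0.30 ± 0.034 (SE, adjusted p = 2.18e-04) and 0.17 ± 0.03 (SE, adjusted p = 0.00250).

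In the cartilage list 6 of 11 tested members rose and 1 fell, with a median slope of 0.22, and the sum was 455.3 to 551.1 CPM at positions 1 to 4 and 653.5 to 969.7 CPM at positions 5 to 8. Hapln1, a hyaluronan link protein gene, measured 9.91, 6.61, 9.60, 14.6, 36.1, 60.6, 93.1 and 117.7 CPM (slope 0.63 ± 0.057 SE, adjusted p = 5.29e-05). Acan, the aggrecan gene, measured 0.412, 0.181, 0.459, 0.737, 1.99, 2.47, 4.73 and 7.12 CPM (slope 0.72 ± 0.065 SE, adjusted p = 5.34e-05), the matrilin gene Matn4 measured 32.0, 43.2, 78.9, 89.0, 112.0, 162.6, 197.3 and 191.2 CPM (slope 0.39 ± 0.03 SE, adjusted p = 2.44e-05), and the transcription factor gene Sox9 had a slope of 0.22 ± 0.028 (SE, adjusted p = 3.96e-04). Col2a1, the collagen gene, was the falling member, with 45.4, 34.4, 43.5, 49.2, 25.8, 26.9, 18.1 and 22.5 CPM and a slope of -0.17 ± 0.042 (SE, adjusted p = 0.0137). Its slope was 0.062 at positions 1 to 4 and -0.11 at positions 5 to 8. Matn1 and Col10a1 were below the filter.

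Markers of other cell types that a dissected germ can hold were also followed. In the erythroid list 0 of 8 tested members rose and 5 fell, with a median slope of -0.34, also with Hbb-bh1 at its bound, and the sum was 35.0 to 145.4 CPM at positions 1 to 4 and 22.4 to 34.7 CPM at positions 5 to 8. Hbb-bh1 reached the filter only at positions 1 and 2, where it was high. Without it 4 of 7 fell, and the median slope was weaker, at -0.24. Slc4a1, the band 3 anion exchanger gene, measured 10.7, 6.06, 5.56, 5.36, 3.41, 4.82, 3.03 and 2.87 CPM (slope -0.24 ± 0.039 SE, adjusted p = 0.00182). The adult globin genes Hba-a1, Hba-a2 and Hbb-b2 were below the filter, and values of near-identical globin copies are uncertain. In the skeletal muscle list 2 of 14 tested members rose and 0 fell, against 14% and 11% of all genes tested. The median slope was 0.036, and with the replicate block 0 passed. The sum was 6.03 to 19.9 CPM at positions 1 to 4 and 11.9 to 21.7 CPM at positions 5 to 8. The rising genes were Ckm, the muscle creatine kinase gene, and Ttn, the titin gene (slopes 0.51 ± 0.13 SE, adjusted p = 0.0168 and 0.18 ± 0.052 SE, adjusted p = 0.0305). Their calls were lost without position 1 or 8 (adjusted p up to 0.0846) for Ckm and without position 1, 2, 3 or 8 (adjusted p up to 0.122) for Ttn. The muscle genes Myod1 and Tnnt3 had slopes of -0.28 ± 0.12 and 0.11 ± 0.066 and did not pass.

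In the neuron list 3 of 10 tested members rose and 4 fell, with a median slope of -0.022. Those that fell were Elavl4, Prph, Gap43 and Syt1. With the replicate block 3 rose and 2 fell, and the sum was 55.2 to 69.4 CPM at positions 1 to 4 and 77.5 to 104.6 CPM at positions 5 to 8. Of the sums of 58.0 CPM at position 1 and 104.6 CPM at position 8, Tubb3 alone held 31.5 and 71.6 CPM. The tubulin gene Tubb3 measured 31.5, 33.1, 31.2, 40.5, 48.5, 61.9, 65.1 and 71.6 CPM (slope 0.20 ± 0.018 SE, adjusted p = 6.42e-05), Stmn2 and Nefl rose with slopes of 0.36 ± 0.04 (SE, adjusted p = 1.79e-04) and 0.48 ± 0.077 (SE, adjusted p = 0.00160), and the synaptic gene Syt1 fell (slope -0.31 ± 0.05 SE, adjusted p = 0.00172). In the Schwann cell list 1 of 9 tested members rose and 0 fell, against 14% and 11% of all genes tested. The median slope was 0.03, and the sum was 93.4 to 107.9 CPM at positions 1 to 4 and 93.4 to 102.9 CPM at positions 5 to 8. Cdh19, Mbp and Erbb3 had slopes of 0.20 ± 0.078, 0.03 ± 0.014 and -0.036 ± 0.019 and did not pass. In the endothelium list 3 of 10 tested members rose and 1 fell, with a median slope of 0.021. The receptor genes Flt1 and Kdr and the gene of von Willebrand factor, Vwf, rose with slopes of 0.15 ± 0.017 (SE, adjusted p = 1.64e-04), 0.069 ± 0.016 (SE, adjusted p = 0.00966) and 0.30 ± 0.053 (SE, adjusted p = 0.00263), and the tight junction gene Cldn5 fell (slope -0.081 ± 0.017 SE, adjusted p = 0.00697). Kdr and Cldn5 lost their calls with the replicate block (adjusted p = 0.0706 and 0.0611), and Kdr also lost it without position 8 (adjusted p = 0.0743).

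Matrix genes were followed in 3 lists, each with members in both directions. In the hyaluronan and proteoglycan list 4 of 12 tested members rose and 3 fell, with a median slope of 0.07. The hyaluronan synthase genes went opposite ways. Has2 measured 62.5, 57.5, 46.4, 39.5, 31.8, 17.8, 14.3 and 10.5 CPM (slope -0.38 ± 0.028 SE, adjusted p = 1.61e-05) and Has3 measured 121.0, 130.8, 160.9, 178.5, 269.7, 333.4, 349.2 and 353.3 CPM (slope 0.26 ± 0.021 SE, adjusted p = 2.60e-05). The proteoglycan gene Vcan rose with a slope of 0.14 ± 0.016 (SE, adjusted p = 2.29e-04). In the basement membrane list 7 of 21 tested members rose and 3 fell, with a median slope of 0.026. Lama1, the gene of the laminin alpha 1 chain, measured 24.8, 33.0, 54.7, 64.4, 61.1, 73.6, 68.1 and 100.8 CPM (slope 0.24 ± 0.035 SE, adjusted p = 8.92e-04), and Fras1, Lamb1 and Nid1 rose with slopes of 0.17 ± 0.017 (SE, adjusted p = 1.07e-04), 0.079 ± 0.015 (SE, adjusted p = 0.00411) and 0.078 ± 0.016 (SE, adjusted p = 0.00535). Among matrix proteases and inhibitors 5 of 13 tested members rose and 3 fell, with a median slope of 0.063. Beside Mmp13 and Mmp9, Adamts9 rose (slope 0.14 ± 0.017 SE, adjusted p = 2.56e-04) and Mmp11 fell (slope -0.079 ± 0.011 SE, adjusted p = 6.85e-04).

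Genes of proliferation and of early fetal growth were followed in 2 lists. In the cell cycle list 1 of 26 tested members rose and 3 fell, against 14% and 11% of all genes tested. The median slope was -0.0028. In 20 of the 26 the slope was negative within positions 1 to 4 and again within positions 5 to 8, as it was in 4803 of all 15956 genes tested (30.1%). The cyclin genes Ccnd1 and Ccnd2 moved apart. Ccnd1 measured 134.5, 132.8, 161.7, 183.2, 241.5, 295.0, 368.8 and 453.8 CPM (slope 0.27 ± 0.016 SE, adjusted p = 7.75e-06) and Ccnd2 measured 790.9, 785.5, 776.4, 735.3, 686.7, 635.6, 567.8 and 638.0 CPM (slope -0.064 ± 0.013 SE, adjusted p = 0.00538). The replication genes Mcm7 and Mcm4 fell with slopes of -0.045 ± 0.012 (SE, adjusted p = 0.0205) and -0.041 ± 0.012 (SE, adjusted p = 0.0330), calls that were lost with the replicate block (adjusted p = 0.104 and 0.137). They were also lost without position 1, 7 or 8 (adjusted p up to 0.122) for Mcm7 and without position 1, 4, 5, 7 or 8 (adjusted p up to 0.208) for Mcm4. Among fetal growth genes 1 of 13 tested members rose and 8 fell, with a median slope of -0.077. The rising one, Arid3a, was not called with the replicate block, and 7 fell there. The chromatin gene Hmga2 measured 442.6, 340.5, 236.2, 200.2, 180.8, 170.9, 139.5 and 104.7 CPM (slope -0.27 ± 0.019 SE, adjusted p = 1.41e-05). The RNA-binding protein gene Igf2bp1 measured 118.3, 97.9, 92.9, 71.1, 61.0, 40.1, 36.9 and 28.1 CPM (slope -0.30 ± 0.017 SE, adjusted p = 6.30e-06), and Igf2bp2 and Igf2bp3 had slopes of -0.11 ± 0.013 (SE, adjusted p = 2.52e-04) and -0.077 ± 0.0093 (SE, adjusted p = 2.95e-04).

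Signs of handling were called at about the share of all genes. In the immediate early and heat shock list 2 of 15 tested members rose and 1 fell, with a median slope of 0.02. Fosb and the heat shock gene Hspb1 rose (slopes 0.17 ± 0.055 SE, adjusted p = 0.0432 and 0.13 ± 0.035 SE, adjusted p = 0.0248, with adjusted p = 0.137 and 0.130 under the replicate block), Egr3 fell (slope -0.25 ± 0.037 SE, adjusted p = 0.00104), and Fos had 0.11 ± 0.037 and did not pass. The calls were lost without position 2, 3, 4, 5, 6, 7 or 8 (adjusted p up to 0.247) for Fosb and without position 1 or 2 (adjusted p up to 0.0722) for Hspb1, whose slope without position 7 was 0.082. The labels give RNA of full integrity for all samples. In the hypoxia and glycolysis list 4 of 13 tested members rose and 2 fell, with a median slope of 0.039. The hexokinase gene Hk2 measured 64.2, 79.7, 114.0, 97.4, 126.7, 165.0, 149.8 and 197.9 CPM (slope 0.21 ± 0.023 SE, adjusted p = 1.42e-04), Aldoa and Eno1 rose with slopes of 0.079 ± 0.013 (SE, adjusted p = 0.00146) and 0.089 ± 0.022 (SE, adjusted p = 0.0158), and the glucose transporter gene Slc2a1 fell (slope -0.12 ± 0.03 SE, adjusted p = 0.0153). Eno1 lost its call with the replicate block (adjusted p = 0.136) and without position 2 or 8 (adjusted p up to 0.127).

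A step at the flow cell change beyond the linear trend was not called in any gene (0%). The smallest adjusted p of that term was 0.692 by edgeR, and 978 genes (6.13%) had an unadjusted p under 0.05. The Wald test of DESeq2 called 28. With 4 positions on each side, step and slope move largely together, so a p that missed the threshold does not show that no step was there.

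The high Pou3f3 libraries, fitted alone in the same order, had 1856 rising and 1174 falling genes, and most trends of the low Pou3f3 libraries had the same direction there. Of the rising genes, 2167 of the 2194 tested in both (98.8%) had a positive slope in the high Pou3f3 libraries, and 1482 were called rising there. Of the falling genes, 1724 of 1746 (98.7%) had a negative slope and 924 were called falling. Called the opposite way were 2 of the rising genes and 1 of the falling genes. The median slope of the genes rising in the low Pou3f3 libraries was 0.14 in the low and 0.11 in the high Pou3f3 libraries, and of those falling it was -0.083 in the low and -0.063 in the high Pou3f3 libraries. The genes were chosen by their slope in the low Pou3f3 libraries, and both groups share flow cells and lanes. Smoc1, with 17.8, 33.4, 59.7, 83.8, 82.3, 58.4, 42.2 and 26.5 CPM in the low Pou3f3 libraries, measured 24.0, 48.7, 88.5, 86.6, 99.9, 96.1, 68.7 and 46.0 CPM in the high ones, and Hbb-y, with 95.0 CPM at position 1 and 0.175 CPM at position 8 of the low, had 102.2 CPM at position 1 and 0.106 CPM at position 8 of the high Pou3f3 libraries.

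No gene had a slope called different between low and high Pou3f3 libraries (0% of 16287) by edgeR. The smallest adjusted p was 0.0612, and 646 genes (3.97%) had an unadjusted p under 0.05. DESeq2 called 22. The 2 genes with the smallest p were Lypd6b and Tfap2b. Lypd6b, a Ly6 family gene, measured 9.99, 10.4, 9.71, 14.1, 12.9, 16.9, 19.3 and 19.1 CPM in the low Pou3f3 libraries and 20.9, 23.1, 23.4, 21.3, 20.6, 22.3, 21.3 and 21.0 CPM in the high ones. Its slope was 0.16 ± 0.022 in the low and -0.0084 ± 0.014 in the high Pou3f3 libraries, a difference of 0.17 ± 0.026 (SE, adjusted p = 0.0612). Tfap2b, whose low Pou3f3 values stand above, measured 408.6, 357.0, 281.9, 250.3, 194.5, 181.3, 158.3 and 115.5 CPM in the high Pou3f3 libraries. Its slope was -0.40 ± 0.019 in the low and -0.25 ± 0.013 in the high Pou3f3 libraries, a difference of -0.15 ± 0.023 (SE, adjusted p = 0.0612).

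Of the other 4 genes with the smallest p in each direction, the slope was more positive in the low Pou3f3 libraries for Pla2g7 (an acetylhydrolase of platelet-activating factor), Plxna2 (a plexin), Ptger4 (a prostaglandin receptor) and Lypd6, with differences of 0.33 ± 0.058 (SE, adjusted p = 0.149), 0.16 ± 0.031 (SE, adjusted p = 0.270), 0.29 ± 0.056 (SE, adjusted p = 0.270) and 0.16 ± 0.032 (SE, adjusted p = 0.270). It was more negative or less positive for Magel2, Wnt2, Cntnap4 and Dlx6as1, with differences of -0.34 ± 0.06 (SE, adjusted p = 0.176), -0.45 ± 0.10 (SE, adjusted p = 0.357), -0.36 ± 0.078 (SE, adjusted p = 0.369) and -0.36 ± 0.08 (SE, adjusted p = 0.444). Dlx6as1 overlaps Dlx6 on the other strand and the library kit does not mark strand, so reads of the 2 genes cannot be told apart. Without position 1 of the low Pou3f3 libraries 13 genes were called different, without position 4 it was 3, and without position 8 it was 2.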

How the data were processed

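The deposited files hold whole-number counts per gene, 1 file a library, with 23337 genes and 5 summary lines each. Per the submitters' processing notes the authors used Bowtie2 2.0.2, TopHat2 2.0.6 and HTSeq 0.5.3p9 on build mm10. Per the labels' protocols, libraries were made from poly(A) RNA with a Truseq V2 kit, which does not mark strand. Reads on no feature and the other summary lines were left out of library sizes. Reads on no feature were 12.6 to 14.2% of gene counts, no-feature reads and ambiguous reads together in the low Pou3f3 libraries. Each low Pou3f3 library holds 33939255 to 40021946 gene counts, which limits precision mainly for genes of few counts. No pair of the 120 pairs of libraries was identical.

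Genes with at least 0.269 CPM (10 counts at median depth) in 2 or more libraries were kept, 15956 in the 8 and 16287 in all 16. Counts were scaled by TMM and fitted in edgeR 4.0.16 (R 4.3.3) with the quasi-likelihood F test. The terms were position, position squared, flow cell, the labelled embryo as a replicate block, or position by Pou3f3 group, and p-values were adjusted by Benjamini-Hochberg over all genes tested at 0.05. With 1 library a position the linear fit has 6 residual degrees of freedom. By the labels the libraries of each labelled tooth came from different embryos. Scatter about the line can therefore hold differences between embryos, technical variation and departure from a straight line, which cannot be told apart. Peaking and dipping need a fitted turn between positions 2 and 7. DESeq2 1.42.0 was an alternative. The fits were tested on simulated data.

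Genes were named among those past the threshold with a symbol and a mean count of at least 50. The rule took the 10 steepest rising and falling genes whose slope had the same sign in both flow cells. It took the 8 peaking and 5 dipping genes with the largest fitted height or depth, and 5 slope differences each way by smallest p. Up to 4 members stand for each list, those with a called squared term first and then those with the smallest p of the slope. Names outside these rules are given as such. Some genes that the rules select are not reported here, and their places were not refilled. The libraries, the order and the 33 lists were chosen with earlier results of these data known. Gene limits come from the GENCODE annotation of mm10.

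The labels put positions 1 and 5, 2 and 6, 3 and 7, and 4 and 8 in the same embryo. The deviations of these pairs from the mean of their label correlated at 0.093, 0.049, 0.061 and 0.128 across genes. Pairs of different labelled embryos correlated at -0.166 to 0.114. The labelled pairs also share their rank within each flow cell, and the part of a shared embryo was not tested. Other per-sample columns numbered 0.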

Additional observations from a re-analysis of the deposited data

Results flagged for a closer look

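Among the genes named by rule, the 4 libraries of positions 1 to 4 and of positions 5 to 8 were each searched for a library far from the other 3, in 62 groups of 4. Such a library was found in 5 groups. A chance rate of about 1 in 20 groups would need values without a trend. These genes were chosen for their trends over the same libraries, so that rate does not apply and the 5 are a description only. Cdh23 had 12.32 CPM at position 8, where positions 5 to 7 held 0.618 to 2.53 CPM. Serpinb3a had 23.05 CPM at position 7, where the others of positions 5 to 8 held 2.74 to 3.55 CPM. Position 8 or 7 thus held the extreme of both genes found in the second flow cell.

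In the first flow cell the extremes were at its ends. Chordc1 had 107.9 CPM at position 1, where positions 2 to 4 held 60.9 to 62.5 CPM. Cxcl5 had 5.363 CPM at position 4, where positions 1 to 3 held 9.25 to 9.93 CPM. Tbx22 had 2.681 CPM at position 4, where positions 1 to 3 held 0.285 to 0.459 CPM. For Cxcl5 and Tbx22 position 5 went further in the same direction, at 1.93 CPM and 7.87 CPM.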

How the results depend on the processing

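With DESeq2 size factors or no filter on low counts, every count of genes called was within 1.5 times the reported one, and all 195 named slopes, squared terms and slope differences had the same direction and side of the threshold. DESeq2's Wald test called 204 peaking and 122 dipping genes, 28 steps and 22 slope differences. The flow cell term gave 178 rising, 51 falling, 59 peaking, 32 dipping and 569 trends of either kind. The replicate block, which pairs positions of a labelled embryo, gave 1010 falling genes and changed no other count by over 1.5 times; of the named results 26 lost the call and 1 gained it. The lane term called 0 rising and 0 falling genes, positions 1 to 4 alone 204 and 112, and positions 5 to 8 alone 127 and 32. Leaving out 1 library gave 1619 to 2133 rising, 1103 to 1613 falling, 2 to 59 peaking and 0 to 25 dipping genes, 2516 to 3210 trends of either kind and 0 to 13 slope differences. The fewest rising and falling genes were without position 8.

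Named slopes past the threshold in either fit changed sign only in fits on part of the order or between neighbours, and the cause was not tested. Slopes past it in neither also changed sign with the flow cell term (Ctsk -0.19, Erbb3 0.026, Fos -0.0073 and Tnfsf11 -0.058), without position 8 (Hey1 -0.048 and Krt18 0.03) and without position 1 (Smoc2 -0.026). The lane term reversed Alpl -0.13, Ccnd2 0.00053, Cd68 -0.00032, Ckm -0.031, Cnfn -1.34, Col1a1 -0.045, Col2a1 0.041, Cyp2f2 -1.08, Hspb1 -0.066, Inhba 0.015, Krt4 -0.49, Ltbp1 0.019, Mcm7 0.0036, Pou3f3 0.05001, Serpinb3a -1.47, Sparc -0.015, Sprr3 -1.27, Tnfrsf19 -0.071 and Vwf -0.35. Positions 1 to 4 alone reversed Cd68 -0.000698, Col2a1 0.062, Fbn2 -0.073, Fosb -0.086, Gli1 0.0028, Krt14 0.034, Krt15 0.10, Krt17 0.025, Lef1 0.17, Nid1 -0.0088, Rdh10 -0.0072, Rspo4 -0.42 and Tnfrsf11b -0.26. Positions 5 to 8 alone reversed Cyp26c1 -0.017, Foxd2 -0.049, Hgf -0.032, Ltbp1 0.0301, Smoc2 -0.26, Sox5 -0.086 and Tnfrsf19 -0.026. Most of these missed the threshold there, and Lef1, Rspo4 and Smoc2 passed it (adjusted p = 0.0491, 0.0216 and 0.0369). Depth limits genes such as Crct1 and Enam, with few counts at positions 1 to 6.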

Other observations

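Other curved genes, chosen here after their values were seen, held transcription factor and signalling genes that were highest after position 4. Sox5, a transcription factor gene of cartilage and neural crest, measured 7.97, 12.0, 21.4, 31.0, 28.3, 35.0, 26.1 and 25.4 CPM, with a fitted maximum at position 5.75 and a squared term of -0.092 ± 0.012 (SE, adjusted p = 0.0199). Foxd2, a forkhead gene, measured 1.15, 1.97, 6.50, 10.9, 18.4, 18.4, 18.3 and 16.2 CPM, with a maximum at position 6.45. Hgf, the ligand gene of the Met receptor, measured 1.18, 1.53, 4.83, 6.22, 10.1, 11.5, 11.2 and 9.29 CPM, with a maximum at position 6.55. All 3 were lowest at position 1 and had a negative slope within positions 5 to 8.

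Prdm16, a zinc finger gene of the palate, measured 10.5, 14.49, 20.1, 25.2, 25.9, 32.0, 22.4 and 21.0 CPM. Thbs4, a matrix gene of tendon and muscle attachment, measured 69.0, 94.1, 120.3, 199.5, 184.4, 174.7, 155.7 and 128.1 CPM. The keratin gene Krt18 of simple epithelium peaked earlier, at position 4.15, with 49.3, 72.7, 65.7, 79.8, 84.5, 63.1, 62.3 and 37.5 CPM.

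Among dipping genes, the matrix genes Tnc and Fbn2 differed in how far they climbed. Tnc measured 239.1, 184.2, 179.2, 171.4, 206.0, 221.1, 275.0 and 364.2 CPM, and Fbn2 measured 368.0, 362.7, 359.2, 313.6, 371.8, 484.5, 548.2 and 1011 CPM. Gfra2, a receptor gene for neurturin, measured 56.4, 44.8, 42.7, 33.3, 32.1, 33.8, 35.1 and 39.4 CPM. Their fitted minima lay at positions 3.61 for Tnc, 3.16 for Fbn2 and 5.43 for Gfra2. Tnc and Fbn2 were highest at position 8 and Gfra2 at position 1. The dependence of such calls on single libraries is as given for the other curved genes.

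Position 6 stood below position 7 in several falling genes with other roles, namely Chodl, Dmrt2, Cyp26b1, Sox2 and Meis2. Meis2 measured 49.5, 33.3, 27.5, 17.9, 15.3, 3.98, 10.1 and 4.40 CPM, and Sox2 43.6, 42.9, 40.7, 26.7, 19.1, 8.85, 13.3 and 6.90 CPM. In these 5 genes, chosen after their values were seen, position 6 was closer to position 8 than to position 7 or 5. Such a choice favours that result. How many of all falling genes stood lower at position 6 than at position 7 was not counted.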
